A study of Homo sapiens with 6 samples.

Results

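The receptor tyrosine kinase MET and the proteins that make its ligand active form a small system of 9 genes: the receptors MET and MST1R, the ligands HGF and MST1, the activating proteases HGFAC and ST14, the protease inhibitors SPINT1 and SPINT2, and the adaptor GAB1. They were taken by gene name from a deposited table of 58735 gene rows, and all 9 were found. The libraries came from Huh7, an established human liver cancer line, in 2 groups: 3 libraries of cells with a short hairpin RNA against TRIM15 (shTRIM15, knockdown) and 3 libraries of cells with a control hairpin (shcontrol, control). Both groups were grown in RPMI-1640 with fetal bovine serum, and the labels give no HGF or inhibitor treatment. How many hairpins were used, and whether the libraries of a group came from separate cultures, was not given in the labels, so p-values measure only the spread between these libraries.

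HGF and its relative MST1 (macrophage-stimulating protein) are secreted as single chains that do not activate their receptors. A serine protease must cut the chain into the active form: HGFAC, the HGF activator made mostly by the liver, circulates in plasma, while ST14 (matriptase) sits on epithelial cells. SPINT1 and SPINT2 are membrane-anchored Kunitz-type inhibitors that block these proteases. Cut HGF binds MET and cut MST1 binds MST1R (RON); MET then recruits GAB1, which docks the lipid kinase PI3K, the phosphatase SHP2 and other signalling proteins. In liver, HGF comes mainly from stellate and other mesenchymal cells, and hepatocytes carry MET.

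Values are FPKM (fragments per kilobase of gene length, scaled to library size), so levels of different genes can be compared per length. Depth was 17332508 to 19556855 reads per knockdown library and 17715210 to 18217903 per control library. TRIM15 averaged 2.62 ± 0.563 FPKM in knockdown and 5.05 ± 0.147 FPKM in control libraries (SD, n = 3 each), 51.8% of control. Hepatocyte markers were present, with all 10 of 10 tested and a summed level of 1558 to 1591 FPKM in knockdown and 1564 to 1605 FPKM in control libraries. Of these markers 2 were lower in knockdown. The fibrinogen gene FGB was at 233 ± 6.01 FPKM in knockdown and 271 ± 7.37 FPKM in control libraries (SD, n = 3 each; log2 fold change -0.22, limma adjusted p = 0.00277), a call that held in all 12 alternatives. The transferrin gene TF had a log2 fold change of -0.0904 (adjusted p = 0.0248), a call that held without control library 1 and was lost without any 1 of the other libraries (0.0611 to 0.0869). Of the cells that could supply HGF, fibroblast and stellate markers had 7 of 12 genes below 0.5 FPKM in every library, with THY1 at 0. Their summed level was 58.1 to 60.7 FPKM in knockdown and 65.2 to 68.8 FPKM in control libraries, most of it lumican (LUM), at 50.7 ± 1.25 FPKM in knockdown and 57.6 ± 1.95 FPKM in control libraries (SD, n = 3 each). Of the 5 tested, LUM and COL1A2 (40.0%) were lower in knockdown, against 19.0% of all genes tested called in either direction. Their log2 fold changes were -0.18 each (limma adjusted p = 0.00931 and 0.0365). The other 3, COL1A1 (0.00721), PDGFRA (-0.0128) and RGS5 (-0.0111), were not called. COL3A1, too low to be tested, went the other way, at 0.3 FPKM in knockdown and 0.194 FPKM in control libraries. The call of LUM held with any 1 library left out, and that of COL1A2 was lost in each of these 6 fits (adjusted p = 0.0639 to 0.0970). The part of these marker changes in the results that follow was not tested. All 10 endothelial markers and 9 of 12 immune markers stayed below 0.5 FPKM in every library. The other 3 immune markers were tested and not called. They were CD14 (13.7 and 14.0 FPKM in knockdown and control), LYZ (3.5 and 3.14 FPKM) and CD3D (1.05 and 1.08 FPKM).

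The system was expressed unevenly. In knockdown libraries SPINT1 (16.0 FPKM) and MET (15.0) stood highest, followed by ST14 (2.22), GAB1 (1.79), MST1 (1.78), HGFAC (0.591) and MST1R (0.231), with SPINT2 and HGF near 0. Control libraries had the same order from ST14 downward, but MET (17.7 FPKM) stood above SPINT1 (16.1). In control libraries the ranges of ST14, GAB1 and MST1 overlapped. In knockdown libraries GAB1 overlapped both of the others, while every ST14 value (1.98 to 2.37 FPKM) lay above every MST1 value (1.56 to 1.92 FPKM). A gene was tested if it reached 0.5 FPKM in at least 3 of the 6 libraries. That left 6 of the 9 genes, since MST1R, SPINT2 and HGF were below this level. Of the 6, MET was lower in knockdown at adjusted p under 0.05 and 0 were higher, so 16.7% were called. Over all 14847 genes tested 19.0% were called, with 10.1% lower and 8.93% higher, so 1 call in 6 genes is near the background. MET was also the 1 gene of the 6 with an unadjusted p under 0.05.

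**Figure D1:**
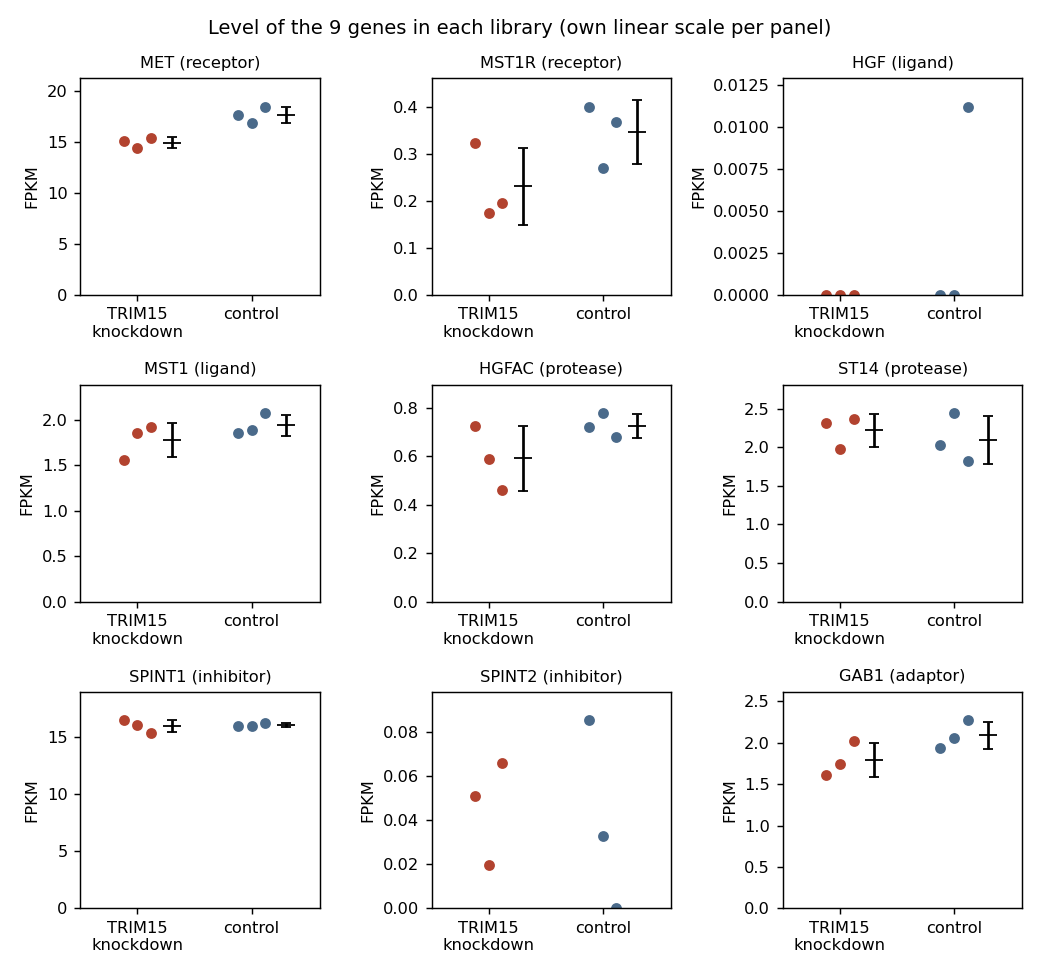
Level in FPKM of each of the 9 genes in 3 TRIM15 knockdown (red) and 3 control (blue) libraries, with 1 point per library and the mean ± SD in black where most libraries had more than a few reads. Each panel has its own linear axis from 0. MET is the panel in which all 3 knockdown points (14.4 to 15.4 FPKM) lie below all 3 control points (16.9 to 18.5 FPKM).

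MET (ENSG00000105976, chromosome 7, 116672390 to 116798386, plus strand, on GRCh38) was at 15.1, 14.4 and 15.4 FPKM in knockdown libraries 1 to 3, and at 17.7, 16.9 and 18.5 FPKM in control libraries 1 to 3. The groups did not overlap, which was also the case for 37.8% of all genes tested. These values rest on 5911 reads in knockdown and 6718 reads in control libraries. The mean was 84.5% of control, with a log2 fold change of -0.23 on the log2(FPKM + 1) scale (SE 0.0420, 95% interval -0.33 to -0.13, limma adjusted p = 0.0113). This is close to the median absolute change of all called genes, 0.22. MET remained past the threshold in all 12 alternatives, with log2 fold changes of -0.26 to -0.20 and adjusted p values of 3.97e-06 to 0.0405. Fewer cells with the transcript and less transcript per cell cannot be told apart in bulk RNA.

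**Figure D2:**
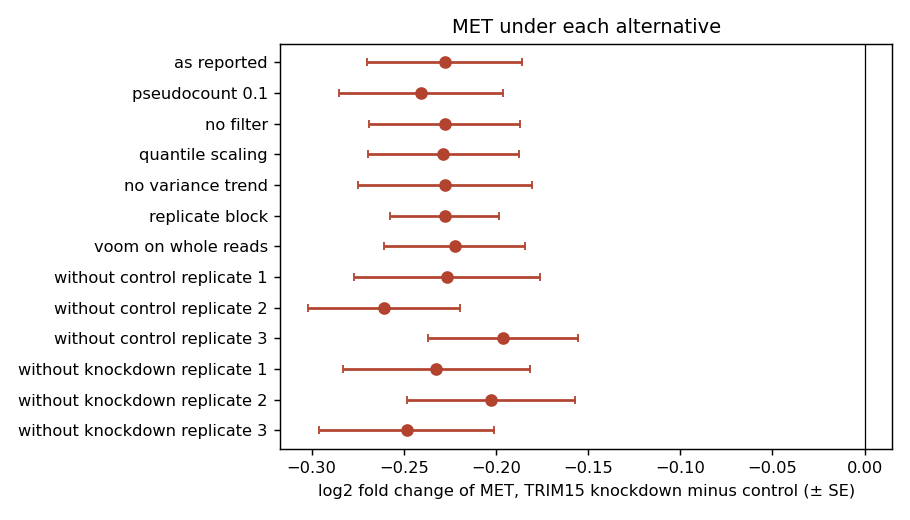
Log2 fold change of MET (knockdown minus control, ± SE) in the fit as reported and in 12 alternatives, 1 per line. Every point lies between -0.26 and -0.20, left of 0.

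MST1R (ENSG00000164078, chromosome 3, 49887002 to 49903873, minus strand), the receptor for MST1, was at 0.323, 0.173 and 0.195 FPKM in knockdown and 0.400, 0.270 and 0.367 FPKM in control libraries. Knockdown library 1 lay within the control range, and the other 2 lay below it. The mean was 66.7% of control. The summed reads were 68 in knockdown (exact Poisson 95% interval 52.8 to 86.2) and 98 in control libraries (79.6 to 119). These intervals overlap, which is not a test of a difference. Tested without the filter on low values, MST1R had a log2 fold change of -0.13 (SE 0.0727, adjusted p = 0.475), on a scale that understates changes of low genes. In that fit 5.89% of the 32030 rows were called, 2.76% higher and 3.13% lower. An antisense gene, AC105935.2, overlaps 6.23% of the MST1R exon bases and was listed at 0.

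HGF (ENSG00000019991, chromosome 7, 81699008 to 81770438, minus strand) was listed at 0 in all 3 knockdown libraries and in control libraries 1 and 2. Control library 3 held 2 reads, or 0.0112 FPKM. A count of 0 over the knockdown libraries allows up to 0.00544 FPKM (3 reads over the group), so both groups were at or under this limit of reads and no fold change is given. HGF transcript was thus not detectable above a few reads in these cells at this depth.

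MST1, the ligand of MST1R, has copies of similar sequence on chromosome 1, the pseudogenes MST1P2 and MST1L. Reads from the copies can be hard to assign, and the labels do not say how the authors treated such reads. A stretch of 60 bases of MST1 coding sequence (chr3:49687593-49687652, minus strand, GRCh38) is shown as an example. It was picked as the first that differs from both copies by only a few bases, so it does not stand for the whole gene. Beside it stand the matching bases of MST1L (chr1:16760798-16760857, minus strand) and MST1P2 (chr1:16646613-16646672, plus strand), all from GENCODE 29 transcripts and written 5′ to 3′. Capitals in the copies mark the bases that differ from MST1, and capitals in MST1 mark every base that differs in at least 1 copy.
MST1: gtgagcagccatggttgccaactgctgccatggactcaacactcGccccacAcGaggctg
MST1L: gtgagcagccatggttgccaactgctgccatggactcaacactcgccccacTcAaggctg
MST1P2: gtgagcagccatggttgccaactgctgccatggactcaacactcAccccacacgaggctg

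MST1L differed from MST1 at 2 of these 60 bases and MST1P2 at 1. Over all annotated MST1 transcripts, 22.8% of the 5927 distinct 50-base windows also occurred in transcripts of another gene, and 8.27% of the 6772 distinct 100-base windows did. MST1L held 15.3% and MST1P2 11.4% of the 50-base windows, and 3.1% and 2.64% of the 100-base windows. A further 5.18% and 3.8%, in part the same windows, lay in AC099668.1. That gene overlaps 6.94% of the MST1 exon bases on the same strand and was listed at 0. Each of the other 8 genes shared at most 4.92% of its 50-base windows, and MET shared 0.252%, so MST1 is the member with the largest shared part.

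MST1 (ENSG00000173531, chromosome 3, 49683947 to 49689501, minus strand) was at 1.56, 1.85 and 1.92 FPKM in knockdown and 1.86, 1.89 and 2.07 FPKM in control libraries. The groups overlapped, since knockdown library 3 lay above control libraries 1 and 2. The log2 fold change was -0.0845 (SE 0.0717, 95% interval -0.25 to 0.09, adjusted p = 0.478). MST1P2 had 3.10, 3.47 and 3.48 FPKM in knockdown and 4.08, 4.18 and 3.68 FPKM in control libraries, a log2 fold change of -0.19 that missed the threshold (SE 0.0607, adjusted p = 0.0680). MST1L, at 0.965 and 1.07 FPKM on average in knockdown and control, did not pass either (-0.0781, adjusted p = 0.555). MST1 took 38.5, 41.9 and 43.6% of the reads counted to the 3 genes in knockdown and 37.9, 39.5 and 42.5% in control libraries, so the split between MST1 and its copies overlapped between the groups. Since at most 43.6% of these reads were counted to MST1, and the genes share sequence, the level of MST1 itself is uncertain.

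**Figure D3:**
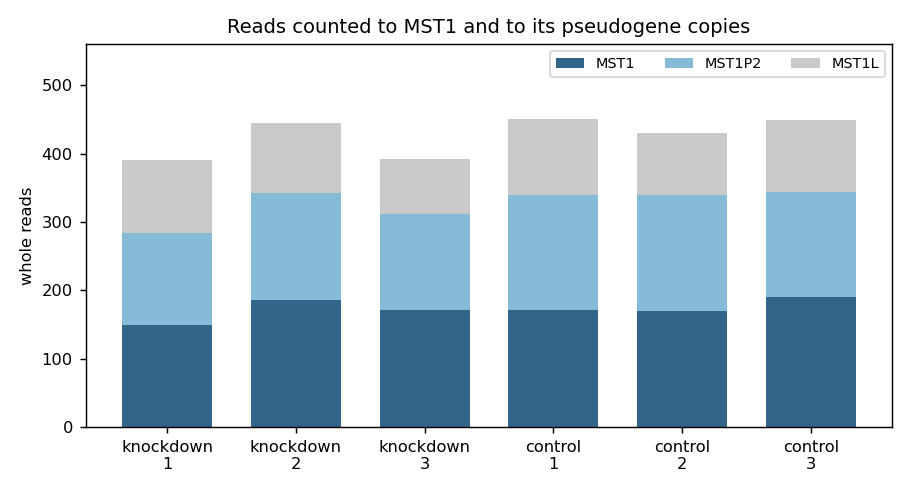
Whole reads counted to MST1 (dark blue) and to its copies MST1P2 (light blue) and MST1L (grey) in each of the 3 knockdown and 3 control libraries, stacked from 0. The sums were 390, 444 and 392 reads in knockdown and 451, 430 and 449 reads in control libraries, and MST1 made up 37.9 to 43.6% of each.

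The activating proteases did not pass the threshold. HGFAC (ENSG00000109758, chromosome 4, 3441887 to 3449495, plus strand), which cuts pro-HGF once thrombin has cut it, was at 0.726, 0.587 and 0.460 FPKM in knockdown and 0.719, 0.776 and 0.677 FPKM in control libraries. Knockdown library 1 lay within the control range and the other 2 lay below it. The values rest on 95 reads in knockdown and 111 in control libraries, and the log2 fold change was -0.12 (SE 0.0957, 95% interval -0.35 to 0.11, adjusted p = 0.452). The log2(FPKM + 1) scale understates changes at this level, since the mean was 81.6% of control. With a pseudocount of 0.1 the change was -0.27 (limma adjusted p = 0.462). In a voom fit to the recovered read counts it was -0.28 (adjusted p = 0.495). ST14 (ENSG00000149418, chromosome 11, 130159562 to 130210376, plus strand) was at 2.32, 1.98 and 2.37 FPKM in knockdown and 2.03, 2.44 and 1.82 FPKM in control libraries. All 3 knockdown values fell inside the control range. Its log2 fold change was 0.0589 (SE 0.0900, 95% interval -0.15 to 0.27, adjusted p = 0.708), and without control library 3 it was -0.00559.

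The inhibitors differed from each other far more than the groups did. SPINT1 (HAI-1; ENSG00000166145, chromosome 15, 40844018 to 40858207, plus strand) was at 16.5, 16.1 and 15.4 FPKM in knockdown and 16.0, 16.0 and 16.3 FPKM in control libraries. The knockdown libraries spread on both sides of the control values, with a log2 fold change of -0.0100 (SE 0.0311, adjusted p = 0.864). The 95% interval, -0.08 to 0.06, does not reach the -0.23 seen for MET. The antisense gene SPINT1-AS1 (0.580 and 0.795 FPKM in knockdown and control) overlaps 2.82% of its exon bases, and whether counting used strand is not stated. SPINT2 (HAI-2; ENSG00000167642, chromosome 19, 38244035 to 38292614, plus strand) was at 0.0510, 0.0195 and 0.0657 FPKM in knockdown and 0.0851, 0.0327 and 0 FPKM in control libraries. Its reads summed to 13 in knockdown (95% interval 6.92 to 22.2) and 11 in control libraries (5.49 to 19.7), so no difference was detectable at this depth. SPINT1 thus made up nearly all of the inhibitor transcript in both groups.

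Set against the protease in the same library, SPINT1 plus SPINT2 over ST14 came to 7.13, 8.14 and 6.54 in knockdown and 7.91, 6.59 and 8.94 in control libraries. The means, 7.27 ± 0.807 and 7.81 ± 1.18 (SD, n = 3 each), did not differ beyond this spread (two-sided exact permutation test on log2 ratios, p = 0.6, where 0.1 is the smallest value possible). A further 2 ratios were chosen after the values were seen and restate the levels given above, so they add no evidence on MET. MET over SPINT1 was 0.915, 0.897 and 0.999 in knockdown and 1.11, 1.05 and 1.14 in control libraries, below 1 in each knockdown library and above 1 in each control library. MET over MST1R was 46.6, 83.1 and 79.0 in knockdown and 44.3, 62.5 and 50.5 in control libraries, higher on average in knockdown with overlapping groups.

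GAB1 (ENSG00000109458, chromosome 4, 143336762 to 143474568, plus strand), the scaffold that MET phosphorylates, was at 1.61, 1.74 and 2.02 FPKM in knockdown and 1.94, 2.05 and 2.27 FPKM in control libraries. Knockdown library 3 lay above control library 1, and the other 2 lay below all control libraries. Its log2 fold change was -0.15 (SE 0.0770, 95% interval -0.33 to 0.03) and missed the threshold (adjusted p = 0.239). In the voom fit to the recovered read counts, which called 28.2% of all genes (15.9% higher and 12.3% lower), it was -0.21 at adjusted p = 0.0558.

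Genes around the system were followed through 5 lists with 85 genes, of which 73 were tested. Of these, 9 were higher and 12 lower, or 28.8%, against 19.0% of all genes tested, and the median log2 fold change was -0.0157, against 0.00143 over all genes tested. By list, 16.7 to 34.8% of the tested genes were called. The lists were chosen with earlier results of these data known, so these shares are no independent comparison and carry no test. Of the 21 calls, 11 held when any 1 of the 6 libraries was left out.

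Among 17 other proteases and serpins that act on the HGF chain or on HGFAC, 10 were tested, with 1 higher, 1 lower and a median log2 fold change of -0.0137. PLAU, which encodes the urokinase protease, fell to 2.69 ± 0.230 FPKM in knockdown, against 3.60 ± 0.253 FPKM in control libraries (SD, n = 3 each; log2 fold change -0.32, SE 0.0671, adjusted p = 0.0187). That call was lost without control library 3 (adjusted p = 0.0583) or knockdown library 2 (0.0522). The log2(FPKM + 1) scale understates the change of PLAU, whose mean was 74.8% of control. F2, the prothrombin gene whose product activates HGFAC, was higher at 15.8 ± 0.665 FPKM in knockdown and 14.0 ± 0.692 FPKM in control libraries (SD, n = 3 each; 0.17, adjusted p = 0.0429). Its adjusted p was 0.104 to 0.128 without control library 2 or 3 or knockdown library 2 or 3. SERPINA5, an inhibitor of HGFAC, did not pass (40.4 ± 0.691 FPKM in knockdown and 40.6 ± 1.19 FPKM in control libraries, SD, n = 3 each; adjusted p = 0.903). Hepsin (HPN), another membrane protease that cuts pro-HGF, was at 7.96 ± 0.152 and 9.11 ± 0.665 FPKM in knockdown and control libraries (SD, n = 3 each; adjusted p = 0.0588). PLG and TMPRSS13 were listed at 0 in every library.

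Co-receptors and surface partners of MET had 9 of 13 genes tested, with 1 higher, 2 lower and a median log2 fold change of -0.0673. SDC1, the heparan sulphate proteoglycan syndecan-1, which can bind HGF, was at 24.3, 23.8 and 24.6 FPKM in knockdown and 18.9, 18.6 and 18.0 FPKM in control libraries. It rose by 0.37 on the log2 scale (SE 0.0288, adjusted p = 0.000480). NRP1 (neuropilin-1), a co-receptor for several growth factors including HGF, fell to 10.7 ± 0.158 FPKM in knockdown, against 13.1 ± 0.193 FPKM in control libraries (SD, n = 3 each; -0.27, adjusted p = 0.00152). ERBB3, a receptor that MET can phosphorylate, fell to 19.7 ± 0.390 FPKM in knockdown, against 23.3 ± 0.658 FPKM in control libraries (SD, n = 3 each; -0.23, adjusted p = 0.00314). These 3 calls held when any 1 library was left out. EGFR did not pass (37.4 and 38.3 FPKM in knockdown and control, adjusted p = 0.504). CD44, which presents HGF to MET, and AXL were below the filter, at 0.0483 and 0.0479 FPKM in knockdown and 0.0260 and 0.0325 FPKM in control libraries.

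Adaptors and effectors downstream of MET were all tested, 23 of 23, with 3 higher, 5 lower and a median log2 fold change of 0.00736. RAPGEF1, the exchange factor for the GTPase RAP1 that CRK adaptors bring to GAB1, was at 33.7, 33.4 and 32.8 FPKM in knockdown and 25.8, 24.2 and 25.3 FPKM in control libraries. It rose by 0.40 on the log2 scale (SE 0.0297, adjusted p = 0.000429). PAK4, a kinase of the cytoskeleton, rose to 18.5 ± 0.265 FPKM in knockdown, against 15.4 ± 0.226 FPKM in control libraries (SD, n = 3 each; 0.25, adjusted p = 0.00141). PIK3R1, the regulatory PI3K subunit that binds GAB1, fell to 4.46 ± 0.159 FPKM in knockdown, against 5.37 ± 0.178 FPKM in control libraries (SD, n = 3 each; -0.22, adjusted p = 0.0140). Without control library 2 or knockdown library 3 its adjusted p was 0.0519 and 0.0503. SOS2, a Ras exchange factor, was lower by -0.24 (adjusted p = 0.0338), a call that held without control library 2 but was lost without any 1 of the other libraries (0.0860 to 0.0945). The 4 further calls, given after their values were seen, were SOS1 (-0.21), PIK3CA (-0.21) and CRKL (-0.11), which were lower, and PLCG1 (0.19), which was higher. Of these, SOS1 held without any 1 library. The number lower was 2 or 3 when any 1 library was left out. GRB2 and SHC1, the adaptors that link the receptor to Ras, and PTPN11, which encodes SHP2, did not pass, with log2 fold changes of 0.0517, 0.0410 and 0.00882.

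Regulators of MET turnover had 19 of 20 genes tested, with 4 higher, 2 lower and a median log2 fold change of -0.0196. PTPRJ, a receptor phosphatase that can act on MET, was at 2.72, 2.92 and 2.63 FPKM in knockdown and 1.91, 2.17 and 2.07 FPKM in control libraries. It rose by 0.30 on the log2(FPKM + 1) scale (SE 0.0593, adjusted p = 0.0145), with adjusted p = 0.0532 without knockdown library 2. That scale understates changes at this level, since the PTPRJ mean was 134% of control. SH3GL1, an endophilin of the endocytic machinery, rose to 51.6 ± 1.53 FPKM in knockdown, against 44.8 ± 1.03 FPKM in control libraries (SD, n = 3 each; 0.20, adjusted p = 0.00479). Both falls were in genes whose products bind MET and have been described as raising, not damping, HGF signalling. SPSB1 was lower by -0.22 (adjusted p = 0.0173). RANBP9 was lower by -0.23 (adjusted p = 0.0449), a call that held without knockdown library 2 and was lost without any 1 of the other libraries (0.0691 to 0.120). RANBP10 (0.20) and the phosphatase gene PTPN1 (0.16), named after their values were seen, were also higher, and PTPN1 had adjusted p = 0.0506 and 0.0510 without knockdown library 1 and 3. CBL, the ubiquitin ligase that sends MET to the lysosome, did not pass (4.07 ± 0.118 FPKM in knockdown and 4.43 ± 0.262 FPKM in control libraries, SD, n = 3 each; adjusted p = 0.226). The sheddase gene ADAM10 did not either (9.08 and 9.24 FPKM in knockdown and control).

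Genes for the making of MET protein and for its transcription had 12 of 12 tested, with 0 higher, 2 lower and a median log2 fold change of -0.0320. The chaperone gene CANX (calnexin) fell by 0.40 on the log2 scale, with 173 ± 0.595 FPKM in knockdown and 228 ± 6.81 FPKM in control libraries (SD, n = 3 each; adjusted p = 0.000208). HIF1A, the hypoxia factor for which MET is a known target gene, was at 86.6, 87.9 and 84.2 FPKM in knockdown and 109, 113 and 114 FPKM in control libraries. It fell by 0.37 on the log2 scale (SE 0.0258, adjusted p = 0.000311). Both calls held without any 1 library. FURIN, the protease that splits the MET precursor into its chains, did not pass (168 and 170 FPKM in knockdown and control, adjusted p = 0.588), nor did SP1 and ETS1, factors that act on the MET promoter.

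**Figure D4:**
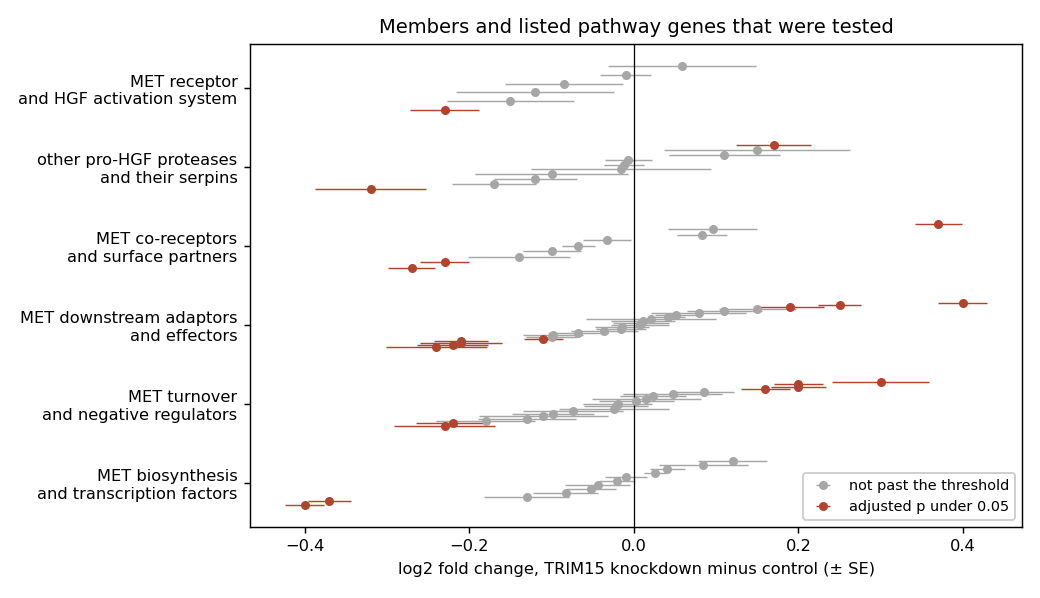
Log2 fold change (knockdown minus control, ± SE) of the 6 tested genes of the MET system, top row, and of the 73 tested genes of the 5 lists. Red points passed adjusted p under 0.05. Of the MET system 1 gene is red, and in the downstream list red points lie on both sides of 0.

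On chromosome 7, 7 genes within 1 Mb of MET were tested, of which 2 were lower and 0 higher. Over all genes tested 10.1% were lower and 8.93% higher, and 7 genes are too few to tell 2 calls from that share. CAV2, which ends 164 kb before MET and encodes caveolin-2, fell to 8.74 ± 0.205 FPKM in knockdown, against 11.5 ± 0.168 FPKM in control libraries (SD, n = 3 each; log2 fold change -0.36, adjusted p = 0.000752). TES, 414 kb before MET, was lower by -0.0917 (adjusted p = 0.0394). That call was lost under quantile scaling (adjusted p = 0.178) and held, among the 6 fits with 1 library left out, only without control library 2; it was between 0.0725 and 0.117 in the others. CAV1, between CAV2 and MET, had a log2 fold change of -0.15 and missed the threshold (adjusted p = 0.0552). CAPZA2, which starts 12.7 kb after MET, was at 20.3 ± 0.414 and 20.6 ± 0.134 FPKM in knockdown and control libraries (SD, n = 3 each; adjusted p = 0.603). MST1 and MST1R lie 198 kb apart on chromosome 3, and neither was called.

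**Figure D5:**
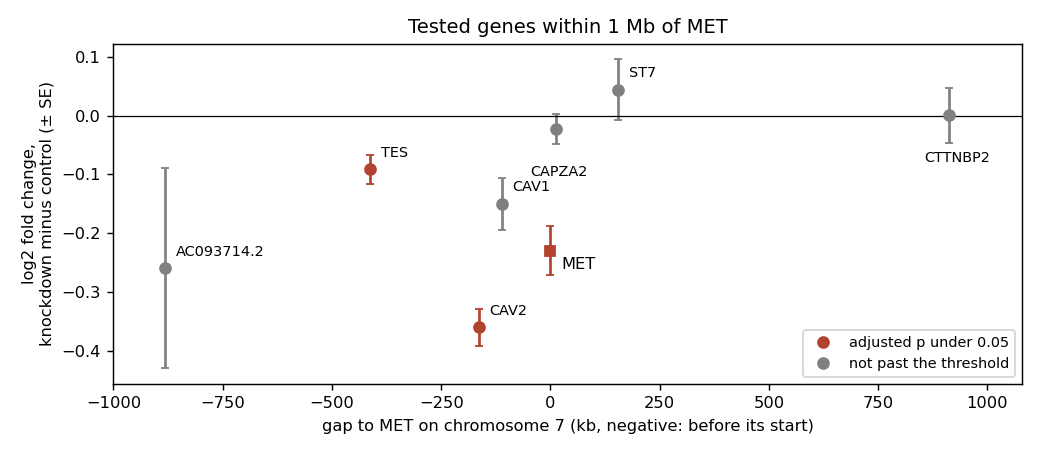
Log2 fold change (knockdown minus control, ± SE) of MET (square) and of the 7 tested genes within 1 Mb of it, by their gap to MET in kb. Red marks adjusted p under 0.05. MET, CAV2 and TES are red, and CAPZA2, 12.7 kb after MET, lies at -0.0225.

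The genes whose values over the 6 libraries were most like those of MET were RDH11, a retinol dehydrogenase, GOLIM4, a Golgi membrane protein, and CDC23, a subunit of the anaphase-promoting complex. Likeness was the root mean square difference of the centred log2(FPKM + 1) values among 4349 protein-coding genes of at least 10 FPKM on average, and was 0.0230, 0.0239 and 0.0292, where the values of MET themselves deviated by 0.123 from their mean. RDH11 was at 17.4, 16.5 and 17.1 FPKM in knockdown and 19.9, 19.3 and 20.5 FPKM in control libraries. This ranking describes the 6 libraries and carries no test.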

How the data were processed

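RNA was sequenced from Huh7 cells, 3 knockdown and 3 control libraries, made with a directional kit per the labels. The deposited table holds FPKM values computed by the authors. The aligner, counter and use of strand are not given in the sources used here. The labels list build mm10, but all 58735 rows equal human GENCODE 29 (GRCh38) in identifier, start, end and strand. FPKM times gene length gave whole reads for 100% of values above 0 (tolerance 0.01). The library size implied by FPKM exceeded the summed reads by 1.04 to 1.27% in knockdown libraries and fell below it in control libraries (-0.370 to -0.359%).

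Groups were compared with limma 3.58.1 in R 4.3.3 on log2(FPKM + 1), which understates the fold change of low genes. The fit had a mean-variance trend, was two-sided and used Benjamini-Hochberg adjustment over 14847 genes with at least 0.5 FPKM in 3 or more libraries, and a threshold of 0.05. It was tested on simulated data. Intervals on reads are exact Poisson 95% intervals and, like the limit for a count of 0 (3 reads), cover counting error only. Ratios were compared by exact permutation. Shared sequence was counted over GENCODE transcripts in 50- and 100-base windows on both strands; the labels give no read length.

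The members and lists were chosen with earlier results of these data known. Named genes were the 9 members, TRIM15, up to 4 called genes per list by size of change, and the 3 genes most like MET; others are said to be named after their values were seen, named by position, or given as abundant or textbook list members. Alternatives were a pseudocount of 0.1, no filter, quantile scaling, no variance trend, a replicate block, each library left out, and, added after the table was seen, limma voom on whole reads.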

Additional observations from a re-analysis of the deposited data

How the results depend on the processing

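The call of MET held in every alternative run, and the numbers of the 9 genes higher (0) and lower (1) did not change in any. Counts over all genes changed more: 2360 genes were higher with voom on whole reads, against 1326 as reported, and 1822 were lower, against 1498. With 1 library left out 792 to 1115 genes were higher and 978 to 1224 lower. Of the listed pathway genes 16 were higher and 16 lower with voom, against 9 and 12 as reported. SPINT1 changed sign with voom (0.0118) and ranged from -0.0300 to 0.0136 with 1 library left out, and ST14 ranged from -0.00559 to 0.14. The log2 difference of the inhibitor to protease ratio was -0.0983 and ranged from -0.22 to 0.00451, the last without control library 3. Some calls among the listed genes ended under other settings: without the filter on low values the adjusted p was 0.0586 for PLAU, 0.107 for F2, 0.0916 for SOS2 and 0.124 for RANBP9, and without the variance trend it was 0.0803 for F2 and 0.0795 for RANBP9. The median log2 fold change over all genes tested was 0.00143 as reported and 0.0235 with voom. The sign changes of SPINT1, ST14 and the ratio concerned no called value, and the cause was not tested.

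Deviations of same-numbered libraries correlated only weakly, at 0.0125, 0.00862 and 0.0133. These values were slightly above those of differently numbered libraries (-0.0142 to 0.0018). With replicate number as a block, 883 genes were higher and MET stayed at -0.23 (adjusted p = 0.0156), while the calls of F2 (0.102), SOS2 (0.0669) and SPSB1 (0.0633), among others, were lost. The planned edgeR test on recovered reads was not run, because the deposited unit is FPKM, and voom took its place. Depth limits HGF, SPINT2 and MST1R, which had 0, 13 and 68 reads over the knockdown libraries and 2, 11 and 98 over the control libraries.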
